A study of Homo sapiens with 6 samples.

Results

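The 9 genes described here encode ligands of the TNF superfamily: TNFSF4, TNFSF9, TNFSF10, TNFSF12, TNFSF13, TNFSF13B, TNFSF14, TNFSF15 and CD70. They were taken by name from the 26255 gene symbols of an RNA-seq table of MDA-MB-231, a cultured line from a human breast tumour that is used as a model of triple-negative disease. The set was chosen by the measured values, since it was built around TNFSF4 after the difference between the groups of cells had been seen in these libraries. The differences of the ligands are therefore given as a description, without a test. In 3 libraries, labelled shNT, the cells carried a control short hairpin RNA, and in 3 libraries, labelled shGPR81, a hairpin against GPR81, the lactate receptor encoded by HCAR1. According to the study's methods, both came from lentiviral infection and puromycin selection of MDA-MB-231 cells. Of the pair of hairpins in those methods, the one in the sequenced cells is not given in the sources used here. The comparison asked which genes differ in expression when GPR81 is targeted.

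Ligands of the TNF superfamily are mostly membrane proteins that assemble as trimers and can be shed by proteases. They bind receptors of the TNF receptor superfamily on neighbouring cells, and those receptors signal through TRAF adaptors to NF-kB or, where they hold a death domain, to caspases. Soluble or truncated decoy receptors bind some of the ligands without passing on the signal. Several of the genes are known mainly from immune cells. TNFSF4 (OX40 ligand), TNFSF9 (4-1BB ligand) and CD70 costimulate T cells, TNFSF13 (APRIL) and TNFSF13B (BAFF) act on B cells, TNFSF10 (TRAIL) can trigger apoptosis, and TNFSF12 (TWEAK) acts on epithelial and stromal cells through TNFRSF12A.

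The sequences upstream of TNFSF4 and TNFSF9 are shown because TNFSF4 is the ligand whose groups separated and TNFSF9 is the ligand nearest to it in mean level over the 6 libraries, although in shNT alone TNFSF13 was nearer. They are the 250 bases before the start site in the RefSeq promoter table (GRCh38.p14), on the strand of the gene, from chr1:173205533-173205782 (minus strand) for TNFSF4 and chr19:6530776-6531025 (plus strand) for TNFSF9. These start sites were not set against the GENCODE gene ends used for distances below, and a gene can have other start sites. Capitals mark the motif match found.
TNFSF4: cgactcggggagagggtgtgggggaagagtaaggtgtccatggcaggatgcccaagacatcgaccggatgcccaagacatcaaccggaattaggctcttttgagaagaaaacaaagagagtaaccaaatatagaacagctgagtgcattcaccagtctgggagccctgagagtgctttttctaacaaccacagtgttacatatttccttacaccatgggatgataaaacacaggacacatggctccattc
TNFSF9: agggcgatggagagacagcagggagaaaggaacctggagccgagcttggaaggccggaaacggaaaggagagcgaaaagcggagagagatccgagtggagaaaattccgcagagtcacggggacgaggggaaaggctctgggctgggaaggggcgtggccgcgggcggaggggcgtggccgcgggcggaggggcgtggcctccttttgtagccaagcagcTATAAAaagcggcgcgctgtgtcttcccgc
On both strands, 4 sets of letters were searched, and no match overlapped another. They were TGACGTCA (cAMP response element, present in 1.65% of 35116 promoters of this length), TGANTCA (AP-1, 6.57%), GGNNTTTCC (NF-kB, 5.48%) and TATAAA (the letters of a TATA box, 10.7%). The TNFSF4 window held none of them. The TNFSF9 window held TATAAA, beginning 30 bases before the start site. The windows held 48.0% and 64.4% G and C, on either side of the median of 58.0% over all promoters. The table had entries for 7 of the 9 ligands, 10 entries in all. Among the others, TNFSF10 held TATAAA 31 bases before its start, 1 of the TNFSF13 entries an NF-kB match 140 bases before, and TNFSF15 an AP-1 match 120 bases before. TNFSF14 also held an AP-1 match, and TNFSF13B held no match. A match describes letters and not a bound site.

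The values are FPKM, fragments scaled to transcript length and library size, so levels can be set side by side between genes. The deposited values gave no read numbers. Of 15931 genes above 0 in at least 3 libraries, 3582 were kept whose values were whole multiples of 1 step, which gives the reads. Only steps that implied 5000000 to 25000000 reads per library on the longest transcript were kept. Within that window the median step corresponded to between 12185471 and 13046988 reads per library, so the total depth is approximate. By these steps the deepest library was 1.07 times as deep as the shallowest. That ratio includes any scaling of the libraries by the authors, and the read ratios below take depth from the same steps. VIM, at 3211 to 4443 FPKM, and CD44, at 149.0 to 180.3 FPKM, marked the libraries as a mesenchymal breast cancer line, and ESR1, PGR and CDH1 were at 0 in all 6. KRT18, an epithelial keratin, had a mean of 207.4 FPKM. Of 5 luminal and epithelial markers, KRT19 (mean 95.1 FPKM) and EPCAM (5.88 FPKM) were expressed, and their summed level was 71.8 to 95.7 FPKM in shNT and 110.2 to 128.3 FPKM in shGPR81. Of 16 leukocyte markers, 8 were at 0 in all libraries, and their summed level was 3.66 to 5.74 FPKM in shNT and 3.01 to 3.71 FPKM in shGPR81. CD14 had the highest level of the list in every library, at 2.24, 4.29 and 3.62 FPKM in shNT and 1.74, 1.14 and 1.58 FPKM in shGPR81, CSF1R had a mean of 0.957 FPKM, and PTPRC, which defines leukocytes, was near 0. Of 6 endothelial markers, CDH5 was at 0, KDR and PECAM1 had means of 0.805 and 0.0778 FPKM, and the sums were 0.865 to 1.10 FPKM and 0.844 to 1.23 FPKM. The part of these markers in the ligand values was not tested.

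HCAR1, the targeted gene, was at 0.968, 1.02 and 1.36 FPKM in shNT and at 0.978, 0.891 and 0.396 FPKM in shGPR81. These were 37, 40 and 52 reads against 40, 36 and 16 reads. With depth taken into account, the ratio of the totals of 129 and 92 reads was 0.677 (95% interval 0.513 to 0.892, counting error only). The groups overlapped, and only shGPR81 replicate 3 lay far below the shNT libraries. The log2 difference was -0.57 (SE 0.31) with an adjusted p of 0.380 in limma, and -0.22 without shGPR81 replicate 3. By exact permutation of the libraries p was 0.2 (two-sided), and 0.1 is the smallest value that groups of 3 allow. The label shGPR81 is therefore used for the libraries and not as a measured level of HCAR1. The study itself reports reduced GPR81 in its hairpin lines by RT-qPCR and western blotting. Whether the RNA sequenced here was the RNA measured there is not stated.

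The 9 ligand genes covered a wide range of levels. TNFSF12 was the most abundant in both groups, TNFSF9 and TNFSF4 followed, and TNFSF13, TNFSF15, TNFSF10 and TNFSF13B lay lower. TNFSF14 was detected by single reads and CD70 was listed at 0. In shNT the order by mean was TNFSF12 (15.5 FPKM), TNFSF9 (2.45), TNFSF4 (1.41), TNFSF13 (1.09), TNFSF15 (0.446), TNFSF10 (0.279), TNFSF13B (0.119) and TNFSF14 (0.0279). In that order the library ranges of TNFSF4 and TNFSF13, and of TNFSF13 and TNFSF15, overlapped, and those of the other neighbours did not. In shGPR81, TNFSF4 (2.61 FPKM) stood above TNFSF9 (2.03 FPKM), with ranges that did not overlap, and the rest kept their order. There the ranges of TNFSF13 and TNFSF15, of TNFSF15 and TNFSF10, of TNFSF13B and TNFSF14, and of TNFSF14 and CD70 overlapped. Of all genes tested, 66.7% had a lower mean than TNFSF12, 27.3% than TNFSF9, 25.8% than TNFSF4 and 0.927% than TNFSF13B.

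**Figure D1:**
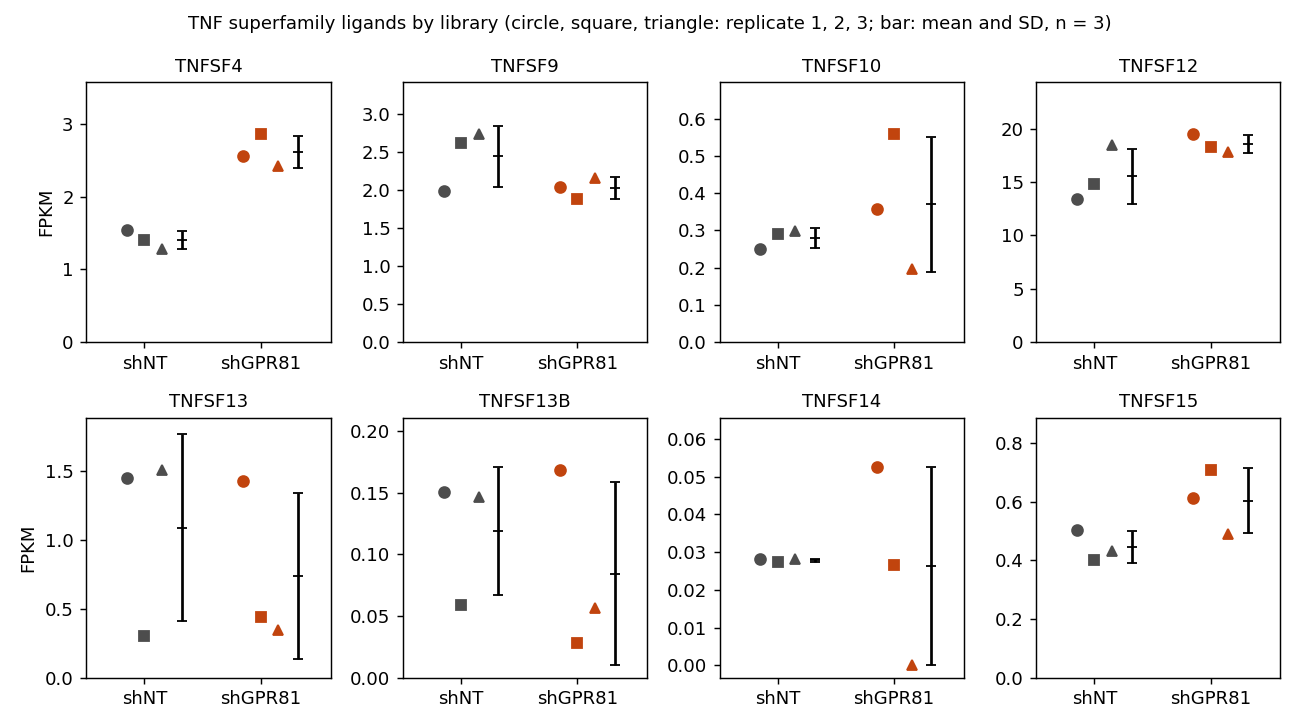
Level in FPKM (y axis, linear, a scale of its own for each gene) of 8 ligand genes in the 3 shNT and 3 shGPR81 libraries, with the mean and SD of each group (n = 3). TNFSF4 is the panel in which the groups do not overlap, at 1.29 to 1.54 FPKM against 2.42 to 2.85 FPKM, and CD70, at 0 in all libraries, is not drawn.

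TNFSF4 encodes OX40 ligand, which binds the receptor TNFRSF4 on activated T cells. The gene lies on the minus strand at chr1:173152870-173176470 (GRCh37, GENCODE). Its level was 1.54, 1.40 and 1.29 FPKM in shNT (1.41 ± 0.125, SD, n = 3) and 2.55, 2.85 and 2.42 FPKM in shGPR81 (2.61 ± 0.223, SD, n = 3). Every shGPR81 library was above every shNT library. The ratio of the means was 1.85, and the log2 difference of FPKM + 0.1 was 0.85 (SE 0.12). With the longest annotated transcript of 3492 bases, these levels correspond to about 65, 61 and 55 reads in shNT and about 116, 128 and 109 reads in shGPR81. In the fit over all genes a gene was called at an adjusted p under 0.05 in limma and a fold change above 1.5. TNFSF4 is in that class, which is part of how the set was chosen and is no test of it. It left the class without shNT replicate 2, at a log2 difference of 0.84, and without shGPR81 replicate 2, at 0.78. In bulk RNA, a larger share of cells with the transcript and more of it per cell cannot be told apart.

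Of the 9 ligands, 7 reached 0.1 FPKM in at least 3 libraries and entered the fit. Of these 7, 1 was called higher, where 0.955% of the 14349 genes tested were, and 0 were called lower, where 1.59% of all genes were. The groups did not overlap for 1 of the 7, against 25.6% of all genes tested. Since the contrast chose the set, nothing is read from these counts. The log2 difference was above 0 for 4 genes and below 0 for 3, with a median of 0.24 where the median of all genes was 0.0081. The summed level of the 9 genes was 19.3 to 24.9 FPKM in shNT and 23.5 to 26.7 FPKM in shGPR81, most of it TNFSF12.

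TNFSF9 encodes 4-1BB ligand, the partner of TNFRSF9. It lies at chr19:6531037-6535935 (plus strand). Its level was 1.99, 2.62 and 2.73 FPKM in shNT and 2.04, 1.88 and 2.16 FPKM in shGPR81. The groups overlapped because shNT replicate 1 lay among the shGPR81 libraries. On the log2 scale the difference was -0.25 (SE 0.15). Here the values gave whole reads, 40, 54 and 55 in shNT and 44, 40 and 46 in shGPR81. With depth taken into account, the ratio of the totals of 149 and 130 reads was 0.829 (95% Clopper-Pearson interval 0.650 to 1.06, counting error only).

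TNFSF9 is followed on chromosome 19 by CD70, 47.3 kb further, and by TNFSF14, 57.1 kb beyond CD70. The 3 genes fall within 139.6 kb and were far apart in level. CD70 (chr19:6583194-6604114, minus strand) encodes the ligand of CD27 and was at 0 in all 6 libraries. With its longest transcript of 911 bases, the 3 reads that a count of 0 still allows correspond to 0.252 to 0.270 FPKM per library, for counting error only. TNFSF14 (chr19:6661264-6670599, minus strand) encodes LIGHT, which binds TNFRSF14 and LTBR. It had 1, 1 and 1 reads in shNT and 2, 1 and 0 reads in shGPR81, at most 0.0525 FPKM, and no fold is given for it.

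TNFSF12, the gene of TWEAK, lies at chr17:7451825-7461207 (plus strand). Its level was 13.4, 14.8 and 18.4 FPKM in shNT and 19.5, 18.2 and 17.8 FPKM in shGPR81. The highest shNT library lay above 2 of the shGPR81 libraries. The log2 difference was 0.26 (SE 0.11), and the SD was 2.60 FPKM in shNT against 0.845 FPKM in shGPR81.

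TNFSF13, the gene of APRIL, lies at chr17:7461609-7464925 (plus strand), 401 bases after TNFSF12. Its level was 1.45, 0.304 and 1.51 FPKM in shNT and 1.43, 0.440 and 0.347 FPKM in shGPR81. Both groups held libraries near 1.4 FPKM and libraries below 0.5 FPKM, and the log2 difference was -0.48 (SE 0.65). A readthrough gene model, TNFSF12-TNFSF13, joins this gene to its neighbour and shares exons with both, so reads can be divided between the models by the authors' counting. The readthrough was at 0.355, 1.38 and 0.752 FPKM in shNT and at 0.000316, 2.11 and 1.89 FPKM in shGPR81. The 3 libraries with little TNFSF13 were the 3 with the most readthrough. Summed, a choice made after the data were seen, they came to 1.81, 1.69 and 2.26 FPKM in shNT and 1.43, 2.55 and 2.24 FPKM in shGPR81. The highest library was 1.78 times the lowest for the sum and 4.96 times for TNFSF13 alone, and the log2 difference of the sum was 0.08. The level of TNFSF13 by itself is thus uncertain in these libraries.

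**Figure D2:**
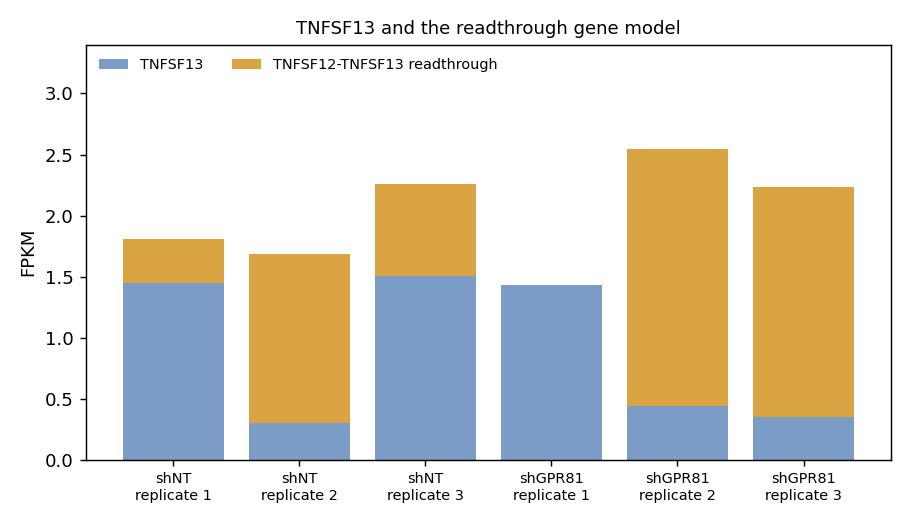
Level in FPKM (y axis) of TNFSF13 and, stacked on it, of the TNFSF12-TNFSF13 readthrough in each of the 6 libraries (x axis). The split between the models changes from library to library within both groups, while the summed bars stay between 1.43 and 2.55 FPKM.

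TNFSF13B encodes BAFF, which shares the receptors TNFRSF13B and TNFRSF17 with APRIL and also binds TNFRSF13C. The gene, at chr13:108903588-108960832 (plus strand), was at 0.151, 0.0588 and 0.147 FPKM in shNT and at 0.169, 0.0278 and 0.0569 FPKM in shGPR81. The highest and the lowest libraries were both labelled shGPR81. On the log2 scale the difference was -0.29 (SE 0.40).

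TNFSF10 encodes TRAIL, the ligand of the death receptors TNFRSF10A and TNFRSF10B. The gene lies at chr3:172223298-172241265 (minus strand). Its level was 0.249, 0.291 and 0.298 FPKM in shNT and 0.358, 0.558 and 0.196 FPKM in shGPR81. The shGPR81 libraries lay on both sides of the shNT libraries. The log2 difference was 0.24 (SE 0.32), and without shGPR81 replicate 2 it was -0.04. These levels correspond to about 5 to 13 reads per library with the longest transcript.

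TNFSF15 encodes TL1A, which binds TNFRSF25 and the decoy TNFRSF6B. The gene lies at chr9:117546932-117568319 (minus strand). Its level was 0.504, 0.400 and 0.433 FPKM in shNT and 0.612, 0.709 and 0.488 FPKM in shGPR81. The groups overlapped through shNT replicate 1 and shGPR81 replicate 3. The log2 difference was 0.36 (SE 0.20), on a chromosome where the median difference of 358 expressed genes was 0.10.

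**Figure D3:**
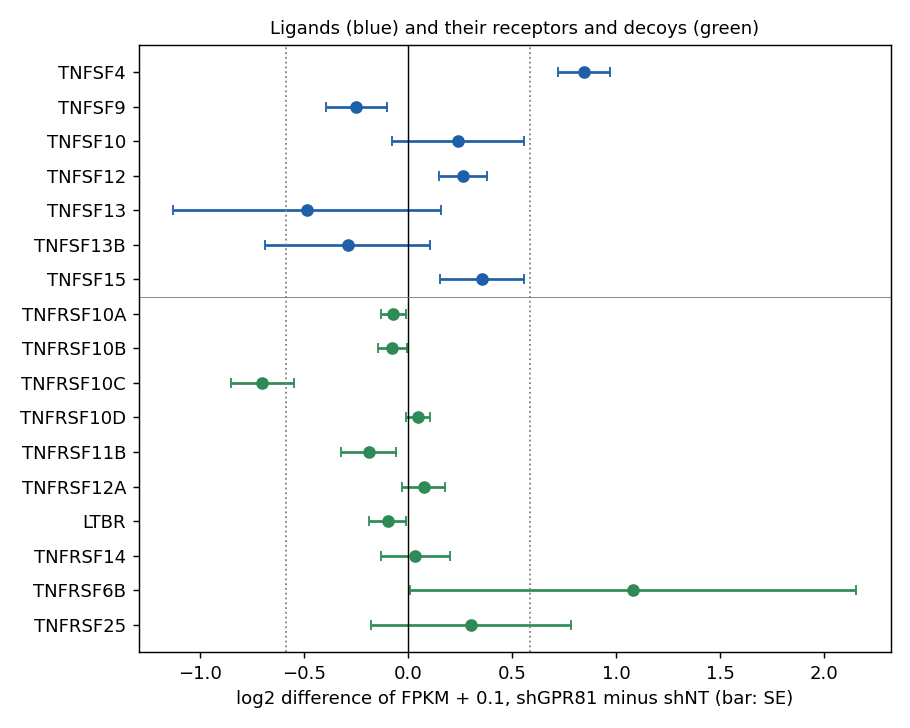
Difference between shGPR81 and shNT libraries on the log2 scale of FPKM + 0.1 (x axis, points, with SE as bars) for the 7 ligands and the 10 receptors and decoys that entered the fit, with a dotted line at a fold change of 1.5 in each direction. TNFSF4, at 0.85, lies beyond the line, as do TNFRSF10C, at -0.70, and TNFRSF6B, at 1.08 with an SE of 1.07.

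The receptors and decoys of these ligands, 18 genes, took no part in choosing the ligands and were tested. This list and the further lists below were drawn up with earlier results of these data known. Of the 18, 10 entered the fit, 1 was called lower and 0 higher, with 1.59% and 0.955% of all genes called. Their median log2 difference was -0.02. The receptors of TWEAK and TRAIL and LTBR were abundant, while the lymphocyte receptors of OX40 ligand, 4-1BB ligand, CD70, APRIL and BAFF were at or near 0.

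TNFRSF4, which encodes OX40, was at 0 in all 6 libraries, which allows up to 0.135 to 0.144 FPKM on its longest transcript by the same limit. TNFRSF9, which encodes 4-1BB, had 5, 7 and 8 reads in shNT and 1, 1 and 1 read in shGPR81. Its levels were 0.0626 to 0.100 FPKM and 0.0117 to 0.0118 FPKM, and the groups did not overlap. The ratio of the reads with depth taken into account was 0.142 (95% interval 0.0271 to 0.480, counting error only). It fell short of the filter and was not tested in the main fit. In the fit of all 17799 genes without a filter the adjusted p was 0.0592 in limma, so the difference did not pass. CD27, the receptor of CD70, had 1, 0 and 1 reads in shNT and 6, 2 and 1 reads in shGPR81, and the groups overlapped.

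TNFRSF12A, the receptor of TWEAK, was at 92.3, 119.2 and 118.4 FPKM in shNT and at 116.5, 109.1 and 120.0 FPKM in shGPR81, the highest of the list. The groups overlapped, and the log2 difference was 0.08 (SE 0.10, adjusted p = 0.757 in limma). Its ligand was thus at about 17 FPKM and the receptor at 112.6 FPKM over the 6 libraries.

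Of the TRAIL receptors, TNFRSF10A and TNFRSF10B carry a death domain. TNFRSF10A lay at 16.9 to 18.7 FPKM over the 6 libraries, with a log2 difference of -0.07 (SE 0.06). TNFRSF10B lay at 39.8 to 47.7 FPKM, with a log2 difference of -0.08 (SE 0.07). TNFRSF10D, a decoy with a truncated death domain, lay at 21.7 to 24.0 FPKM, with a log2 difference of 0.05 (SE 0.06). TNFRSF11B, the soluble decoy osteoprotegerin, which also binds TRAIL, lay at 3.42 to 4.94 FPKM, with a log2 difference of -0.19 (SE 0.13). The groups overlapped for all 4 and none passed the test, with adjusted p from 0.518 to 0.729 in limma.

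TNFRSF10C, a decoy for TRAIL that is anchored in the membrane without a signalling domain, was at 2.05, 2.07 and 2.30 FPKM in shNT and at 1.56, 1.11 and 1.21 FPKM in shGPR81. Every shGPR81 library was below every shNT library. The gene was called lower, with a log2 difference of -0.70 (SE 0.15, adjusted p = 0.0450 in limma). The call depended on single libraries: it was lost when shNT replicate 1, 2 or 3, or shGPR81 replicate 2 or 3, was left out, with log2 differences from -0.83 to -0.60 over the 6 omissions, and with a replicate block (adjusted p = 0.0737). Over 14 other settings the adjusted p ran from 0.0310 to 0.145 and the gene was called in 5.

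LTBR, one of the receptors of LIGHT, lay at 32.9 to 41.6 FPKM, with a log2 difference of -0.10 (SE 0.09). TNFRSF14, the other, lay at 1.12 to 1.67 FPKM, with a log2 difference of 0.04 (SE 0.16). Neither passed, with adjusted p of 0.638 and 0.938 in limma. BTLA and CD160, which bind TNFRSF14 on lymphocytes, reached at most 0.0236 and 0.0760 FPKM. TNFRSF25, the receptor of TL1A, lay at 0.0818 to 0.410 FPKM, and its groups overlapped.

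TNFRSF6B, the soluble decoy DcR3, which binds TL1A and LIGHT, was at 0, 2.17 and 1.43 FPKM in shNT and at 0.913, 2.10 and 1.37 FPKM in shGPR81. Its log2 difference was 1.08 (SE 1.07, adjusted p = 0.665 in limma), with shNT replicate 1 alone at 0. A readthrough model with its upstream neighbour, RTEL1-TNFRSF6B, was at 1.83 FPKM in that library and at 1.43 FPKM in shGPR81 replicate 1, and at 0 to 0.0227 FPKM in the other 4. Their sum, also formed after the values were seen, was 1.83, 2.17 and 1.45 FPKM in shNT and 2.35, 2.10 and 1.37 FPKM in shGPR81, with overlapping groups. As at TNFSF13, the division between the models moved more than the sum did.

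The receptors of APRIL and BAFF were scarcely seen. TNFRSF17 was at 0 in all libraries, TNFRSF13B was above 0 in 1 library, at 0.119 FPKM, and TNFRSF13C in 2, at 0.0932 and 0.283 FPKM. These 3 libraries were shGPR81 libraries, and none of the genes reached the filter.

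**Figure D4:**
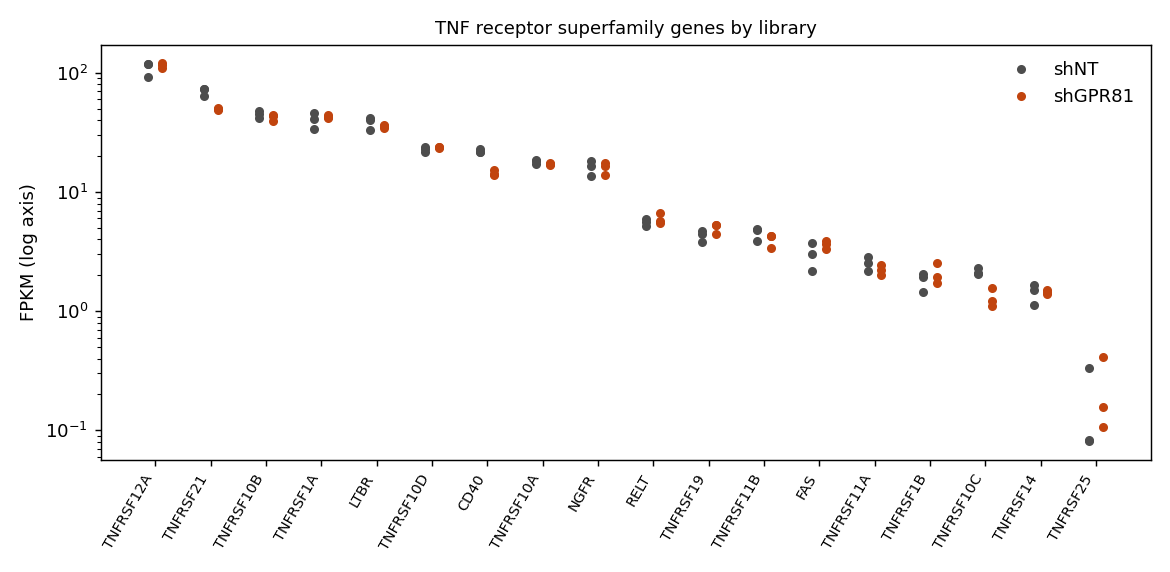
Level in FPKM (y axis, log scale) of the 18 TNF receptor superfamily genes that entered the fit and were above 0 in all 6 libraries, in order of their mean, with 1 point per library. TNFRSF12A is at the left, at 92.3 to 120.0 FPKM, and the shGPR81 points lie below all shNT points for TNFRSF21, CD40 and TNFRSF10C.

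The remaining receptors of the superfamily bind other ligands. Of 13 genes, 9 entered the fit, 1 was called lower and 0 higher, with 1.59% and 0.955% of all genes called. CD40, which receives the T cell signal of CD40 ligand, was at 21.6, 22.8 and 21.9 FPKM in shNT and at 13.9, 14.3 and 15.3 FPKM in shGPR81. The groups lay well apart, with a log2 difference of -0.61 (SE 0.06, adjusted p = 0.00219 in limma). CD40 lies on chromosome 20, where 257 of 267 expressed genes were lower in shGPR81 with a median log2 difference of -0.40. Relative to the median of its chromosome, its difference was -0.20 and was no longer called (adjusted p = 0.112). Without shGPR81 replicate 1 it was -0.58 and fell just under the fold limit.

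TNFRSF21, a death receptor also called DR6, was at 64.2, 73.8 and 72.9 FPKM in shNT and at 48.5, 49.4 and 50.8 FPKM in shGPR81. It passed the adjusted p but stayed under a fold change of 1.5, with a log2 difference of -0.50 (SE 0.06, adjusted p = 0.00568 in limma). TNFRSF1A, the main receptor of TNF, was at 33.6 to 46.1 FPKM in shNT and 41.6 to 44.3 FPKM in shGPR81, and its log2 difference was 0.10 (SE 0.11, adjusted p = 0.679).

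Of 9 other ligands of the superfamily, TNF, CD40LG, TNFSF8 and TNFSF11 were at 0 in all libraries, and LTB was at most 0.212 FPKM. TNFSF18, which encodes the ligand of GITR, was the only one to enter the fit. Its level was 0.940, 0.524 and 0.402 FPKM in shNT and 1.38, 1.52 and 0.634 FPKM in shGPR81. The groups overlapped, and the log2 difference was 0.81 (SE 0.38, adjusted p = 0.295 in limma). Its own receptor, TNFRSF18, was at 0 in all libraries.

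TNFSF18 is also the nearest neighbour of TNFSF4. The genes are 132.8 kb apart on chromosome 1, both on the minus strand, with 0 other genes of the table starting between them. Around TNFSF4, 3 tested genes on each side were compared. On the side of TNFSF18, C1orf105 had a log2 difference of 0.48 (SE 0.46) and SUCO of 0.06 (SE 0.07). On the other side, PRDX6, a peroxiredoxin at about 226 to 246 FPKM, had 0.04 (SE 0.05), KLHL20 0.02 (SE 0.07) and CENPL, a centromere protein, -0.04 (SE 0.08). None of these 6 neighbours passed the test, with adjusted p from 0.295 to 0.923 in limma, and the groups overlapped for each.

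**Figure D5:**
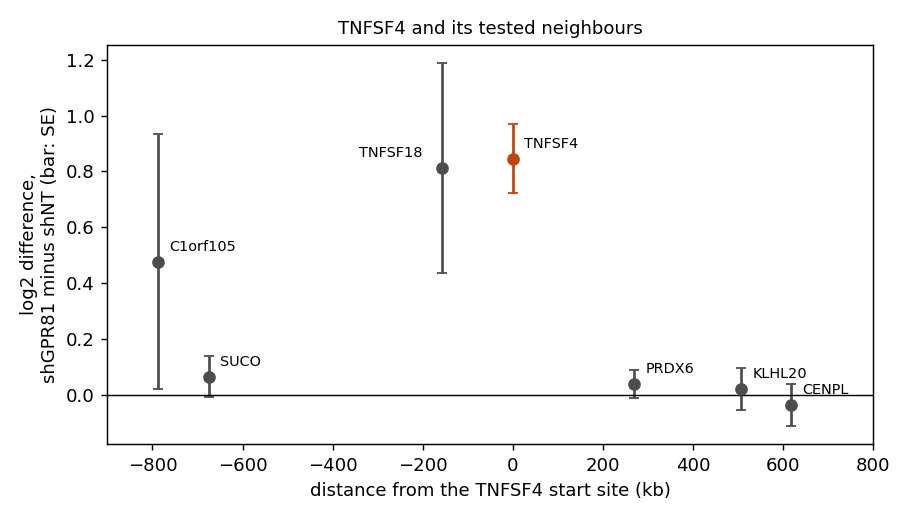
Log2 difference between shGPR81 and shNT libraries (y axis, points, with SE as bars) of TNFSF4 and its 3 nearest tested genes on each side. The x axis is the distance in kb from the TNFSF4 start site in GENCODE. TNFSF18, at 0.81 with an SE of 0.38, lies at the height of TNFSF4, at 0.85, and the other neighbours with an SE under 0.1 lie between -0.04 and 0.06.

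The genes whose profile over the 6 libraries was most like that of TNFSF4 were taken from the 11676 genes whose mean reached 1 FPKM, by the root mean square of the difference in centred log2 level. They were ENPP1 (0.0671), ANKRD22 (0.0752), PRRG4 (0.0767), PRSS12 (0.0807) and SNTB1 (0.0856). With a pseudocount of 1 in place of 0.1, 2 of these 5 were again among the nearest 5. ENPP1, an ectonucleotidase, was at 35.5, 31.6 and 30.8 FPKM in shNT and at 56.4, 56.7 and 52.7 FPKM in shGPR81. PRRG4, a membrane protein, was at 1.44, 1.37 and 1.20 FPKM in shNT and at 2.22, 2.51 and 2.47 FPKM in shGPR81, a level near that of TNFSF4. Among the genes of the ligand, receptor and signalling lists, the closest were IKBKB (0.268), at place 311 of all, CASP6 (0.317), at place 723, and TNFRSF19 (0.325), at place 813. The measure was taken over the same 6 libraries that set TNFSF4 apart.

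The genes that act after the receptors showed no call. Of 25 TRAF and NF-kB signalling genes, all were tested and 0 were called in limma in either direction, with 2 at an unadjusted p under 0.05, as were 19.5% of all genes tested. IKBKB, a kinase of the NF-kB inhibitors, was at 8.55, 8.03 and 7.93 FPKM in shNT and at 11.1, 10.6 and 9.30 FPKM in shGPR81, with a log2 difference of 0.33 (SE 0.08) and the smallest adjusted p of the list, 0.0748. TRAF2, the other, had a log2 difference of 0.26 (SE 0.09, adjusted p = 0.153). RELA, an NF-kB subunit, and CHUK, the partner kinase of IKBKB, were the most abundant, with means of 44.1 and 24.0 FPKM and log2 differences of 0.05 and -0.11. The median log2 difference of the list was 0.04.

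Of 22 death signalling genes, 21 were tested and 0 were called in limma, with 5 at an unadjusted p under 0.05 (CASP6, CASP8, CYCS, FADD and MLKL), against 19.5% of all genes tested. CASP6, an executioner caspase, had the smallest adjusted p, 0.142, with a log2 difference of 0.30 (SE 0.10). BAX, which opens the outer mitochondrial membrane, and BCL2L1, which opposes it, were the most abundant, with means of 133.7 and 76.9 FPKM. Their log2 differences were 0.07 (SE 0.07) and -0.21 (SE 0.09), and BCL2L1 lies on chromosome 20.

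Of 8 proteases that process such ligands, all were tested and 0 were called in limma. Of the 8, 1 had an unadjusted p under 0.05 in limma, as did 19.5% of all genes tested. This was FURIN, a convertase that cleaves TWEAK, APRIL and BAFF, at 3.78, 5.20 and 5.49 FPKM in shNT and 6.08, 5.90 and 6.96 FPKM in shGPR81. The groups did not overlap, as for 25.6% of all genes tested. The log2 difference of 0.40 (SE 0.15) had an adjusted p of 0.198 in limma. The shedding enzymes ADAM10 and ADAM17 had means of 28.6 and 20.3 FPKM and log2 differences of -0.05 (SE 0.08) and -0.06 (SE 0.06).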

How the data were processed

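RNA of 3 shNT and 3 shGPR81 libraries was read as single ends of 75 bases. The submitters' processing notes name TopHat2 2.0.13, Bowtie2 2.2.3, SAMtools 0.1.19 and Cuffnorm 2.2.1. The notes name a mouse genome and the study's methods a human one (hg19); the gene symbols are human. The annotation is not given in the sources used here. The deposited table holds FPKM made by the authors, 1 value per symbol and library. Nothing states that the libraries came from separate cultures, so p-values measure only the spread between these libraries. Such tools divide reads among overlapping models, as those at TNFSF13 and TNFRSF6B.

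Log2(FPKM + 0.1) was compared with limma 3.58.1 (trend, no block) in R 4.3.3 for the 14349 genes that reached 0.1 FPKM in 3 or more libraries. The pseudocount makes differences of low genes smaller. Genes were called where the p-value, adjusted by Benjamini-Hochberg, was under 0.05 and the fold exceeded 1.5. On simulated data with 200 genes changed 3-fold, 195 were recovered and 6 unchanged genes were called falsely. The changed genes had a mean of at least 1 FPKM. Recovery of smaller changes, such as that of TNFSF4, or of lower genes was not simulated. The noise was drawn for each gene separately, from its own spread in the fit, and the filter of 0.1 FPKM was not applied. No shift shared by a library or a chromosome was simulated, so the false calls do not measure errors from such shifts. The members and the gene lists were chosen with earlier results of these data known. The text names each of the 9 ligands and of the 18 receptors and decoys. Of each further list, also of the other ligands and receptors, it names the called genes and the 2 most abundant, with others marked by their p. Reads were recovered from whole multiples of 1 step within a relative tolerance of 0.0002, set after the values of TNFSF14 were seen. Steps that implied fewer than 5000000 or more than 25000000 reads per library were left out. Intervals and the floor of 3 reads cover counting error only. Gene coordinates are those of GENCODE on GRCh37 and promoters those of RefSeq on GRCh38.p14. The alternatives were other pseudocounts, filters and scalings, a replicate block, and leaving out each library.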

Additional observations from a re-analysis of the deposited data

How the results depend on the processing

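With a pseudocount of 1 the log2 difference of TNFSF4 was 0.58, just under the fold limit, and 0 ligands, 0 receptors and decoys and 0 other receptors were called, with 75 genes higher and 142 lower in all against 137 and 228. Leaving out each library in turn gave 0 to 1 ligands called higher, 0 to 1 receptors and decoys called lower and 0 to 1 other receptors called lower, and 68 to 156 genes higher and 110 to 238 lower in all. The median of the ligands ran from -0.040 to 0.31 over these omissions, the lowest without shGPR81 replicate 2, and was 0.0077 over the 4 ligands left by a filter of 1 FPKM. With no filter, with chromosome centring and with a replicate block, 0 receptors and decoys were called lower, and chromosome centring also left 0 other receptors called. The labels do not state whether same-numbered libraries were paired, and the main fit did not pair them. Same-numbered libraries deviated with correlations of 0.120, 0.022 and 0.0058. These cannot show whether libraries were paired, since differently numbered libraries were not compared. The replicate block gave 115 genes higher and 197 lower, with TNFSF4 called at 0.85. Over 14 alternatives TNFSF4 was called in 11, at 0.58 to 0.91. HCAR1 was called in none of the 13 alternatives in which it was tested, which leave out the filter of 1 FPKM. Depth limits TNFSF14, CD70, TNFSF13B and TNFSF10, which rest on few reads or none.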
